A study of Mus musculus with 2 samples.

Results

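Collagen is altered by many enzymes and escorts between its synthesis and its place in a fibre, and 32 genes of that route are described here in the connective tissue cells of the young mouse knee. They were chosen by gene symbol, with no measured value in the rule, and all 32 were among the 32285 genes of the deposited count matrix. By step, 12 serve hydroxylation (P4ha1, P4ha2, P4ha3, P4hb, P3h1, P3h2, P3h3, P3h4, Crtap, Plod1, Plod2, Plod3), 2 glycosylation (Colgalt1, Colgalt2), 5 folding in the endoplasmic reticulum (ER) (Serpinh1, Fkbp10, Ppib, Tmem38b, Creb3l1) and 1 export (Mia3). A further 6 serve propeptide cleavage (Adamts2, Adamts3, Adamts14, Bmp1, Pcolce, Pcolce2) and 5 serve crosslinking (Lox, Loxl1, Loxl2, Loxl3, Loxl4). The last, Sparc, encodes a secreted protein that binds collagen.

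The cells came from the knee joints of Col12a1 KO and WT mice of both sexes at postnatal day 7. Col12a1 encodes collagen XII, which sits on the surface of collagen I fibrils. After removal of skin and paws, cells were freed by 6 h of digestion with 4 mg/mL collagenase II, and 3' single-cell RNA libraries were made with 10x Genomics v3 chemistry. Each genotype gave 1 library to an initial experiment and 2 to a later one. The labels give no strain, no allele beyond KO and no count of animals, and nothing in them ties a cell to a genotype, so Col12a1 KO and WT cells were not compared and every value below is a mixture of both.

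Fibrillar collagens are made as procollagen chains that are modified while they enter the ER. Prolyl 4-hydroxylases make the triple helix stable at body temperature, prolyl 3-hydroxylases and lysyl hydroxylases act on fewer residues, and galactosyltransferases add sugar to hydroxylysine. The folded molecule is escorted by chaperones, leaves through enlarged COPII carriers and loses its end propeptides to ADAMTS and BMP1 proteases. Lysyl oxidases then oxidise lysine and hydroxylysine so that neighbouring molecules crosslink, which gives tendon, bone and cartilage their tensile strength.

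The matrix held 257619292 UMIs (unique molecular identifiers, each counting 1 captured transcript) in 24203 barcodes. Barcode endings divide it into set 1, with 11906 barcodes and a median of 7369 UMIs, and set 2, with 12297 and 7212. What the sets are (genotypes, experiments or libraries) is not stated in the labels, and 40 barcode sequences occur in both. Filtering left 15096 cells, 7088 in set 1 and 8008 in set 2, with 14 barcode sequences still in both. Clustering without the 32 genes, the other listed genes and all collagens gave 5 connective tissue classes named from markers: 1342 chondrocyte-like cells, 322 osteoblast-like cells, 724 tenocyte-like or ligament-like cells (led by Tnmd, Kera and Scx; called tendon-like below), 2630 fibroblast-like cells, and a small class of 157 synovial lining fibroblast-like cells (called synovial lining-like below). Osteoblast markers summed to 5846 CPM in set 1 and 19478 CPM in set 2 of the osteoblast-like class, so the osteoblast-like cells of the sets differ in these markers. All 10 osteoblast markers were up in this class, which Bglap and Bglap2 led, but the 6 hypertrophic chondrocyte markers, of which Alpl is also on the osteoblast list, summed higher still, to 12613 CPM (7867 in set 1 and 19522 in set 2), against 5735 CPM in chondrocyte-like cells. The 6 erythroid markers were found in all 5 classes at 3516 to 7878 CPM, against 323160 CPM in erythroid-like cells, and synovial lining markers reached 3333 CPM in chondrocyte-like cells, against 18578 CPM in their own class. Of 10 immediate early and heat shock genes that tissue digestion can raise, 3 were lower in chondrocyte-like and 5 in synovial lining-like cells than in the other classes. Of all genes tested, 21.3% and 17.4% were lower there. Tendon-like cells had 1 higher and 1 lower, against 6.37% and 11.5% of all genes, and fibroblast-like cells 1 lower, against 12.5%. Hspa1a was at 181 CPM in chondrocyte-like cells, against 2128 CPM in the other classes. The part of these in the results was not tested. Of the 57 calls below, 56 held without cells above 1% of haemoglobin, S100a8 and S100a9 UMIs. That left out only 2.8% of fibroblast-like to 8.1% of osteoblast-like cells, with the other classes between. The cells kept could still hold up to 1% of such UMIs, so this cannot show how far free blood RNA bears on the calls.

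A level here is the number of UMIs of a gene in a class, out of 1000000 UMIs of the class (CPM). It is not scaled by gene length, so levels are read across classes for 1 gene and not between genes. Shares within a family and sums over a step put UMIs of several genes together. They carry the same limit and are meant for comparison across classes. A gene is called higher or lower in a class where its level differs at least 2-fold from the level in the pool of the other 4 connective tissue classes, with at least 100 UMIs in the class and the pool together, a 95% interval that leaves out 1 and the same direction in both sets. Intervals cover counting error only. With 1 matrix there are no replicates and no p-values, and the sets are the only repeat.

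The 32 genes did not move as a block, and paralogs of the same step often had different highest classes. In chondrocyte-like cells 5 of 32 were higher, against 9.51% of all 14045 genes tested, and 8 were lower, against 21.3%. In osteoblast-like cells 3 were higher, against 6.36% of genes, and 4 lower, against 13.1%. Tendon-like cells also had 3 higher, against 6.37%, and 4 lower, against 11.5%. Fibroblast-like cells had 5 higher, against 10.2%, and 8 lower, against 12.5%. Synovial lining-like cells had 2 higher, against 9.92%, and 15 lower, against 17.4%. When cells were clustered on 15 principal components, the synovial lining-like class held 695 cells and had 1 higher and 4 lower. The median log2 ratio of the 32 genes was 0.11 in chondrocyte-like, 0.22 in osteoblast-like, 0.20 in tendon-like, -0.49 in fibroblast-like and -0.82 in synovial lining-like cells. Over all genes tested these medians were -0.16, -0.06, -0.03, -0.03 and 0.01 in the same order.

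Of the 57 calls, 18 higher and 39 lower, 49 also passed the 2-fold limit in each set alone. The calls fell on 23 genes. The other 9, P4hb, P3h3, Crtap, Plod1, Plod3, Colgalt1, Ppib, Tmem38b and Mia3, were called in no class, and 4 (Creb3l1, P3h1, Serpinh1 and Sparc) were called in the synovial lining-like class alone. Within the connective tissue, the highest level was in chondrocyte-like cells for 9 genes, in osteoblast-like cells for 8, in tendon-like cells for 6, in fibroblast-like cells for 5 and in synovial lining-like cells for 4, and this class was the same in both sets for 22 of 32.

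**Figure D1:**
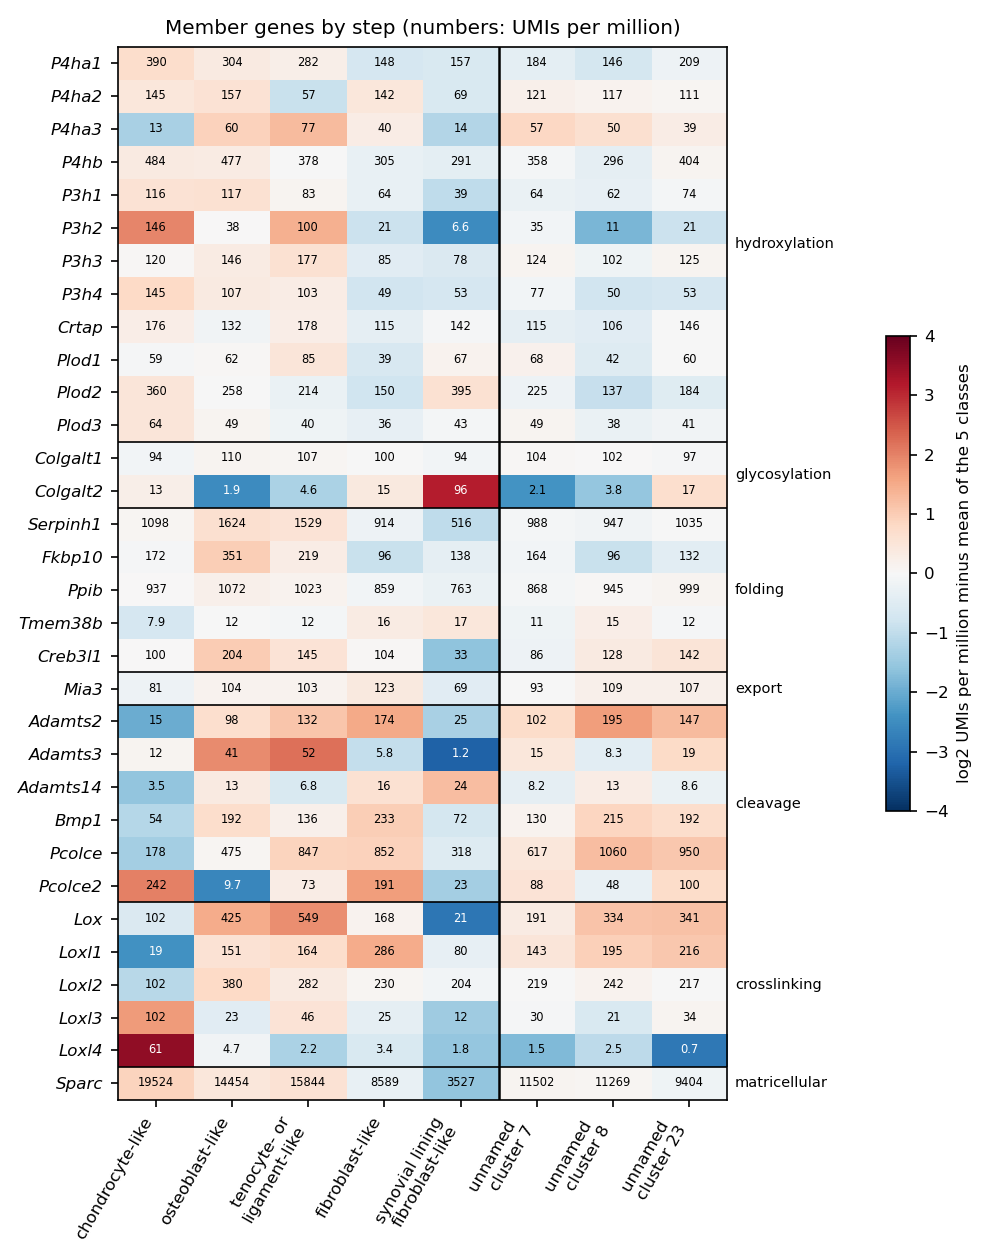
Level of each of the 32 genes (rows, ordered by step) in the 5 connective tissue classes. Right of the black line are the unnamed collagen-bearing clusters. The numbers are CPM and the colour is the log2 level minus the mean of the 5 classes. Within a step the highest class differs between paralogs, as where Loxl4 stands at 61.3 in chondrocyte-like cells and Loxl1 at 286 in fibroblast-like cells.

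**Figure D2:**
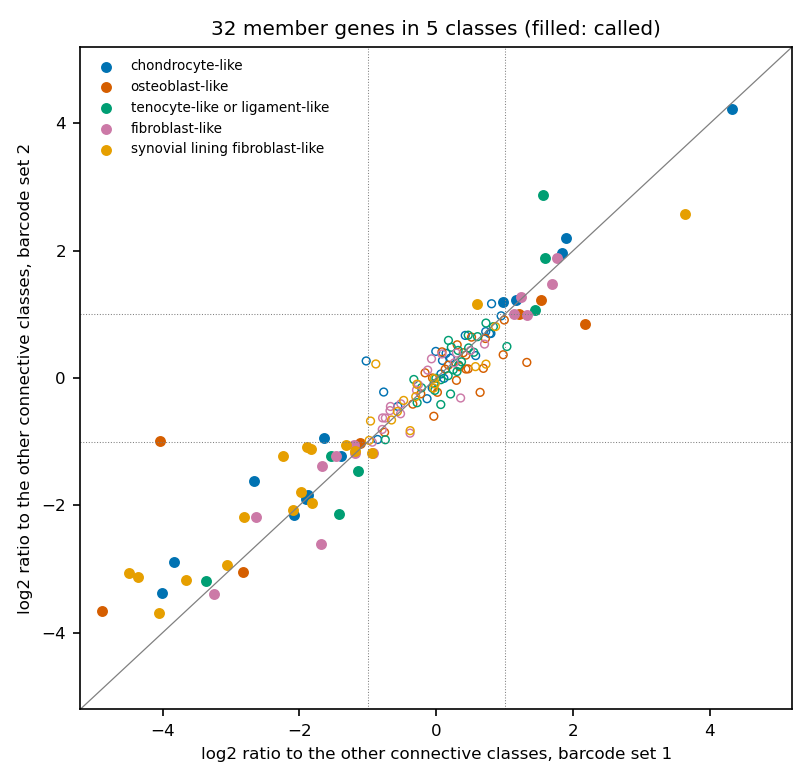
Log2 ratio of each gene in each class to the pool of the other classes, in barcode set 1 (x axis) and barcode set 2 (y axis); filled points are the 57 calls, open points the other pairs, and the grey line marks equality. The points follow the line, and Loxl4 in chondrocyte-like cells is at the upper right with ratios of 19.9 and 18.8.

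Prolyl 4-hydroxylase is made of catalytic alpha chains, from P4ha1, P4ha2 or P4ha3, and beta chains from P4hb, which is also protein disulfide isomerase. All 3 alpha chain genes were called in some class, and P4hb in none. P4ha1 was at 320 and 475 CPM in sets 1 and 2 of chondrocyte-like cells, against 163 and 208 CPM in the other classes, a ratio of 2.09 (95% interval 2.04 to 2.15) with 1.97 in set 1 alone. That log2 ratio of 1.07 lay between 0.89 and 1.19 over 21 alternatives, 12 of which kept the call. It was lower in fibroblast-like cells, at 125 and 169 CPM against 287 and 385 CPM, by 2.25-fold (2.19 to 2.31). P4ha3 was instead called lower in chondrocyte-like cells. Tendon-like cells had 83.4 and 71.9 CPM of P4ha3, against 30.7 and 34.2 CPM in the other classes, a ratio of 2.38 (2.21 to 2.56). Chondrocyte-like cells had 12.7 and 13.2 CPM, against 46.5 and 47.1 CPM, 3.62-fold lower (3.23 to 4.06), and in synovial lining-like cells it was 2.77-fold lower (2.08 to 3.77), with 4.72-fold in set 1. Synovial lining-like cells had 7.94 and 17.2 CPM, so which class was lowest changed with the set.

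P4ha2 stood apart in tendon-like cells, which had 58.0 and 56.4 CPM, against 129 and 155 CPM in the other classes, 2.48-fold lower (2.30 to 2.67). This call depended on how the class was drawn: it was kept in 13 of 21 alternatives, and its log2 ratio of -1.31 was -0.35 with 15 principal components. As a share of the 3 alpha chain transcripts, P4ha2 was 13.7% in tendon-like cells, 26.4% in the chondrocyte-like class, 30.1% in the osteoblast-like class and 43.1% in the fibroblast-like class. P4ha1 was 71.2% of them in chondrocyte-like cells and 44.9% in fibroblast-like cells, and P4ha3 reached 18.6% in tendon-like cells. P4hb was at 484 CPM in chondrocyte-like, 477 in osteoblast-like, 378 in tendon-like, 305 in fibroblast-like and 291 in synovial lining-like cells.

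The promoters of these paralogs are shown because, with both sets together, the 3 genes had different highest connective tissue classes. For P4ha2 this class changed with the set, from osteoblast-like in set 1 to chondrocyte-like, the highest class of P4ha1, in set 2. Counting intervals did not separate the P4ha2 levels of these classes. The RefSeq windows (build GRCm38.p6, 250 bases before to 50 after the start) are chr10:59323046-59323345 for P4ha1, chr11:54100674-54100973 for P4ha2 and chr7:100285270-100285569 for P4ha3, all on the plus strand. Capitals mark ACGTG or its reverse complement CACGT, searched on both strands, a core shared by sites of hypoxia-inducible factors and of several ER stress factors.
P4ha1: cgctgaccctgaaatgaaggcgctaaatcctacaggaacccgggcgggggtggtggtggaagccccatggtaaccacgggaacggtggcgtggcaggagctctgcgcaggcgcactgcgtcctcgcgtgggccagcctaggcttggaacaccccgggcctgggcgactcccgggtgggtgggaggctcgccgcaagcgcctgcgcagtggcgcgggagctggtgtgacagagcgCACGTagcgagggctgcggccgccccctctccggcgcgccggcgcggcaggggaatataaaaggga
P4ha2: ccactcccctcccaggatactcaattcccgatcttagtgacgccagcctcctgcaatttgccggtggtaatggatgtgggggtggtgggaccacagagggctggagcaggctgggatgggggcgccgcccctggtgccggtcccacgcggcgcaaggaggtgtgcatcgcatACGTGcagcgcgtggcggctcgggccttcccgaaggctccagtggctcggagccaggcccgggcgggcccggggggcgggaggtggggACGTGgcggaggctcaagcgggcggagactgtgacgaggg
P4ha3: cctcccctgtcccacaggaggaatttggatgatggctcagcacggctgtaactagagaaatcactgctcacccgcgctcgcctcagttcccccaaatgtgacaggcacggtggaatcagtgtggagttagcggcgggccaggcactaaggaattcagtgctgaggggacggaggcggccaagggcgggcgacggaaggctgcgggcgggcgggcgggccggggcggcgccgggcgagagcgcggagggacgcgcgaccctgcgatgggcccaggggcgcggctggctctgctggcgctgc
P4ha1 had 1 match, which begins 16 bases before the start, and P4ha2 had 2. P4ha3 had none in this window. The P4ha2 window lies inside the gene as GENCODE M21 annotates it, which begins at 54100095, and the bases before that start are not shown. For 20 of the 32 genes 22 windows were found, and 9 windows of 9 genes held the motif (Adamts3, Mia3, P3h1, P4ha1, P4ha2, P4hb, Plod3, Ppib and Serpinh1), beside 19.6% of the 32851 mouse promoters in the table. The longer TGACGTGG was in 1 window, that of Adamts3, beside 0.676% of promoters. A match is a description of letters and says nothing of binding. The 10 hypoxia-inducible genes listed for comparison (Slc2a1, Bnip3, Pgk1 and others) had 5 called higher and 1 called lower in chondrocyte-like cells. In fibroblast-like cells 1 of them was higher while 6 were lower, in synovial lining-like cells 6 were lower, in tendon-like cells 3 were lower, and in osteoblast-like cells 1 was higher and 1 lower. The 10 listed cell cycle genes had 3 higher and 1 lower in chondrocyte-like cells, 3 higher in osteoblast-like cells and 6 lower in fibroblast-like cells. Over all genes tested, 9.51% were higher in chondrocyte-like, 6.36% in osteoblast-like and 10.2% in fibroblast-like cells. The shares lower were 21.3% in chondrocyte-like, 13.1% in osteoblast-like, 12.5% in fibroblast-like, 17.4% in synovial lining-like and 11.5% in tendon-like cells. Slc2a1, the main glucose transporter gene of many cells, was at 271 CPM in chondrocyte-like cells, against 45.6 CPM in the other classes.

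Prolyl 3-hydroxylation of collagen I is done in the ER by a complex of P3H1, CRTAP and cyclophilin B (from Ppib). Of these 3 genes only P3h1 was called. The level of P3h1 was 117 CPM in osteoblast-like, 116 in chondrocyte-like, 83.0 in tendon-like and 63.7 in fibroblast-like cells, and the call was in synovial lining-like cells, with 34.4 and 40.7 CPM against 78.2 and 90.5 CPM, 2.19-fold lower (1.84 to 2.62). Crtap ranged from 115 CPM in fibroblast-like to 178 CPM in tendon-like cells, and Ppib from 763 CPM in synovial lining-like to 1072 CPM in osteoblast-like cells.

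P3h2, the paralog best known for modifying collagen IV, differed 22.3-fold between its highest and lowest connective class. Chondrocyte-like cells had 137 and 157 CPM, against 36.7 and 34.2 CPM in the other classes, a ratio of 4.14 (3.93 to 4.35). Fibroblast-like cells had 17.8 and 23.6 CPM, against 111 and 107 CPM, 5.24-fold lower (4.90 to 5.60). In synovial lining-like cells it was 10.1-fold lower (6.64 to 16.1). Tendon-like cells were second among the 5 classes, at 120 and 84.0 CPM. P3h2 was 38.3% of the transcripts of P3h1, P3h2 and P3h3 in chondrocyte-like cells, 27.8% in tendon-like cells, 12.3% in fibroblast-like cells and 5.34% in synovial lining-like cells. An annotated gene on the same strand overlaps P3h2, and how the counting parts such reads is not stated in the labels.

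P3h4 encodes SC65, a protein without hydroxylase activity that acts with P3H3 and lysyl hydroxylase 1. It was at 127 and 167 CPM in chondrocyte-like cells, against 56.2 and 71.5 CPM in the other classes, a ratio of 2.26 (2.16 to 2.36), and it was 2.48-fold lower in fibroblast-like cells (2.37 to 2.60). Its partner P3h3 was highest in tendon-like cells, at 168 and 186 CPM, and was called in no class, nor was Plod1, at 38.8 CPM in fibroblast-like and 84.8 CPM in tendon-like cells. P3h4 (chr11:100408456-100414836, GRCm38, minus strand) lies next to Fkbp10 (chr11:100415697-100424824, plus strand), but their highest classes differed, as given below for Fkbp10.

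Lysyl hydroxylase 2, from Plod2, acts on the telopeptides and so sets which crosslinks can form. Plod2 was at 409 and 388 CPM in synovial lining-like cells, the class with the least fibrillar collagen, and at 329 and 398 CPM in chondrocyte-like cells, so which of these was higher changed with the set. Osteoblast-like cells had 256 and 261 CPM, tendon-like cells 226 and 203 CPM, and fibroblast-like cells 157 and 144 CPM. The single call was in fibroblast-like cells, 2.07-fold lower (2.01 to 2.13), with 1.89-fold in set 1. Plod2 made up 63.1% (tendon-like) to 78.3% (synovial lining-like) of the Plod transcripts in the 5 classes. Plod1 was 25.0% of them in tendon-like and 12.2% in chondrocyte-like cells, and Plod3 was 15.97% in fibroblast-like and 8.47% in synovial lining-like cells. Plod3, which also transfers glucose to collagen, ranged from 35.9 CPM in fibroblast-like to 63.8 CPM in chondrocyte-like cells and was not called.

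The 2 galactosyltransferases that start the sugar chain on hydroxylysine behaved differently. Colgalt1 was nearly flat, from 93.9 CPM in synovial lining-like to 110 CPM in osteoblast-like cells. Colgalt2 (chr1:152399830-152510695, GRCm38) was at 106 and 91.3 CPM in the 2 sets of synovial lining-like cells, against 8.52 and 15.4 CPM in the other classes, a ratio of 8.07 (7.11 to 9.14), with 12.4 in set 1 and 5.94 in set 2. It was 8.11-fold lower in osteoblast-like cells (4.82 to 14.9), which had 1.64 and 2.38 CPM from 14 UMIs, and 3.56-fold lower in tendon-like cells (2.73 to 4.72). Colgalt2 was 50.6% of the Colgalt transcripts in synovial lining-like cells and at most 12.7% in the other 4 classes with both sets together, though chondrocyte-like cells had 6.28% in set 1 and 18.2% in set 2. In cells thinned to 2000 UMIs, 11.5% of 157 synovial lining-like cells had a Colgalt2 UMI (6.94% to 17.5%), against 3.35% of fibroblast-like cells and 0.0227% of 4403 blood cells. Before thinning these shares were 47.8%, 16.7% and 0.308%, with median depths of 19404, 15797.5 and 5385.5 UMIs.

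**Figure D3:**
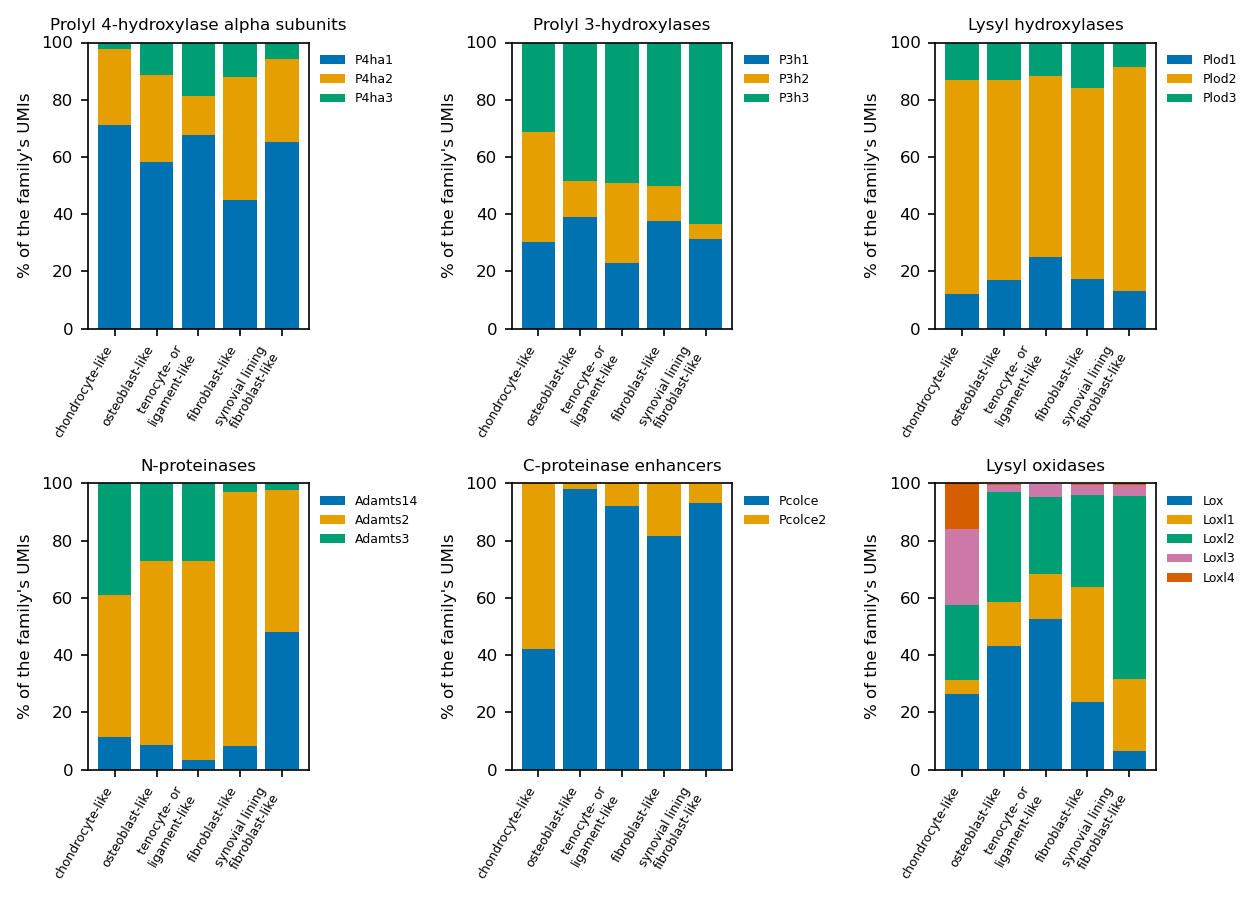
Share of each paralog in the UMIs of its family (y axis, percent) in the 5 connective tissue classes (x axis). The families are prolyl 4-hydroxylase alpha chains, prolyl 3-hydroxylases, lysyl hydroxylases, ADAMTS propeptidases, procollagen C-proteinase enhancers and lysyl oxidases. Plod2 has the largest share of lysyl hydroxylase UMIs in all 5 classes, while Pcolce2 takes 57.7% of its family in chondrocyte-like cells.

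Of the 5 folding genes, 1 was called higher in osteoblast-like cells, 1 lower in fibroblast-like cells and 2 lower in synovial lining-like cells, where 6.36%, 12.5% and 17.4% of all genes were called in the same directions. Serpinh1 encodes HSP47, the chaperone that binds folded procollagen. It was at 1556 and 1722 CPM in osteoblast-like, 1322 and 1705 CPM in tendon-like, 1054 and 1152 CPM in chondrocyte-like and 818 and 1002 CPM in fibroblast-like cells. In synovial lining-like cells it was at 406 and 572 CPM, against 1012 and 1182 CPM in the other classes, 2.13-fold lower (2.03 to 2.23). After thinning, 58.6% of synovial lining-like cells and 85.5% of osteoblast-like cells had a Serpinh1 UMI, beside 2.29% of blood cells.

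Fkbp10 encodes FKBP65, a prolyl isomerase whose loss in humans gives brittle bones. Osteoblast-like cells had 358 and 342 CPM, against 124 and 146 CPM in the other classes, a ratio of 2.60 (2.49 to 2.71). Fibroblast-like cells had 86.7 and 104 CPM, against 199 and 218 CPM, 2.17-fold lower (2.09 to 2.24). The fibroblast-like call was kept in 12 of 21 alternatives, with log2 ratios of -1.20 to -0.80, and the osteoblast-like call in 17 of 19. It was the only folding gene called higher in any class.

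Creb3l1 encodes OASIS, an ER-bound transcription factor that is cut free under load and is known in mouse bone for driving collagen I transcription. It was highest among connective classes in osteoblast-like cells, at 200 and 209 CPM, then in tendon-like cells at 121 and 165 CPM, without a call in either. In synovial lining-like cells it was at 28.2 and 34.8 CPM, against 111 and 121 CPM, 3.56-fold lower (2.94 to 4.33). Its paralog Creb3l2, known in mouse cartilage for driving the secretory machinery, had the other pattern: 277 CPM in chondrocyte-like cells, against 103 CPM in the other classes, and 68.4 CPM in osteoblast-like cells, against 155 CPM. Of the 6 listed genes of this kind, Creb3l2 alone was called, higher in chondrocyte-like and lower in osteoblast-like cells. Of all genes tested, 9.51% and 13.1% were called in these directions. Tmem38b, an ER cation channel gene, ranged from 7.88 CPM in chondrocyte-like to 17.0 CPM in synovial lining-like cells and was not called.

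Genes of the general ER machinery were called no more often than all genes. Of 12 chaperones and folding helpers, 1 was higher and 1 lower in chondrocyte-like cells, against 9.51% and 21.3% of all genes tested. In fibroblast-like and in synovial lining-like cells 1 was lower in each, against 12.5% and 17.4%. The oxidase gene Ero1l accounted for the higher call, at 161 CPM in chondrocyte-like cells against 57.5 CPM in the other classes, and it was the lower call in fibroblast-like cells, at 48.0 CPM against 122 CPM. Mia3, which encodes the export receptor TANGO1 that loads procollagen into COPII carriers, ranged from 69.1 CPM in synovial lining-like to 123 CPM in fibroblast-like cells and was called in no class. Of the 11 other COPII and ER retrieval genes, Kdelr3 alone was called, lower in synovial lining-like cells at 58.3 CPM against 146 CPM.

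Among the 5 connective tissue classes, propeptide cleavage genes were mostly higher in fibroblast-like and lower in chondrocyte-like cells. Of these 6 genes, fibroblast-like cells had 4 higher and 1 lower, none was higher and 4 were lower in chondrocyte-like cells, and 1 was higher and 5 were lower in synovial lining-like cells. Of all genes tested, the fibroblast-like class had 10.2% higher with 12.5% lower, against 9.51% and 21.3% in chondrocyte-like cells and 9.92% and 17.4% in synovial lining-like cells. The classes are each part of the pool against which the others are set, so the opposite calls are not independent of each other. With 3 unnamed collagen-bearing clusters added to the pool, an alternative chosen after seeing the data, all 4 higher calls of fibroblast-like cells fell short of 2-fold. The log2 ratios were 0.99 for Adamts2, 0.97 for Adamts14, 0.94 for Bmp1 and 0.64 for Pcolce. These 3 clusters, led by Msmp, Sfrp4 and Dnah12, held 704, 700 and 196 cells. Their cleavage genes summed to 961, 1539 and 1417 CPM, against 1472 CPM in fibroblast-like cells. In sets 1 and 2 the cluster led by Sfrp4 was at 1215 and 1785 CPM, against 1257 and 1667 CPM in fibroblast-like cells.

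N-propeptides are cut by ADAMTS2, ADAMTS3 and ADAMTS14. Adamts2 was at 160 and 186 CPM in fibroblast-like cells, against 49.5 and 67.2 CPM in the other classes, a ratio of 3.0 (2.87 to 3.13). It was at 9.91 and 22.0 CPM in chondrocyte-like cells, against 141 and 163 CPM, 9.95-fold lower (9.0 to 11), and was 4.84-fold lower in synovial lining-like cells (3.90 to 6.08). Adamts3 was instead higher in the tendon-like and osteoblast-like classes. Tendon-like cells had 34.6 and 66.4 CPM, against 11.7 and 9.09 CPM, a ratio of 4.97 (4.49 to 5.51) with 2.96 in set 1. Osteoblast-like cells had 49.8 and 29.0 CPM, against 11.0 and 16.1 CPM, a ratio of 3.04 (2.67 to 3.46) with 4.53 in set 1 and 1.80 in set 2.

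In fibroblast-like cells Adamts3 was 4.43-fold lower (3.90 to 5.04), and synovial lining-like cells had 1.2 CPM from 4 UMIs. Adamts14 had 14.1 and 29.4 CPM in synovial lining-like cells, against 9.33 and 13.1 CPM in the other classes, a ratio of 2.16 (1.70 to 2.71) with 1.51 in set 1 alone. It was higher in fibroblast-like cells by 2.22-fold (1.96 to 2.53), just under 2-fold in set 2, and 4.17-fold lower in chondrocyte-like cells (3.36 to 5.23), with 6.32-fold in set 1. Adamts2 was 88.9% of the transcripts of the 3 in fibroblast-like cells, 69.3% in the tendon-like and 64.3% in the osteoblast-like class, and Adamts14 was 48.2% of them in synovial lining-like cells.

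C-propeptides are cut by BMP1, helped by the enhancer proteins of Pcolce and Pcolce2. Bmp1 was at 207 and 257 CPM in fibroblast-like cells, against 87.4 and 106 CPM in the other classes, a ratio of 2.41 (2.33 to 2.50). It was 3.80-fold lower in chondrocyte-like cells (3.59 to 4.01) and 2.34-fold lower in synovial lining-like cells (2.06 to 2.67), with 3.57-fold in set 1. Pcolce was alike in fibroblast-like cells, at 695 and 995 CPM, and tendon-like cells, at 665 and 1003 CPM, and was called higher in fibroblast-like cells with a ratio of 2.12 (2.08 to 2.15). In chondrocyte-like cells it was at 152 and 209 CPM, against 641 and 927 CPM, 4.45-fold lower (4.31 to 4.58). Synovial lining-like cells had 263 and 346 CPM, against 506 and 779 CPM, 2.02-fold lower with 1.92-fold in set 1, a call kept in 10 of 20 alternatives.

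Pcolce2 had another order. It was at 228 and 260 CPM in chondrocyte-like and 175 and 206 CPM in fibroblast-like cells, but at 5.85 and 15.3 CPM in osteoblast-like cells, against 173 and 194 CPM in the other classes, 18.9-fold lower (15 to 24.3) with 29.6-fold in set 1. It was also lower in tendon-like cells, 2.53-fold (2.37 to 2.71), and in synovial lining-like cells, 7.65-fold (6.12 to 9.70). After thinning, 24.1% of chondrocyte-like, 23.2% of fibroblast-like and 0.946% of osteoblast-like cells had a Pcolce2 UMI, beside 0.341% of blood cells. Of the pair, Pcolce2 was 57.7% of transcripts in chondrocyte-like cells and 2.00% in osteoblast-like cells. A gene on the same strand overlaps Pcolce.

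Each of the 5 lysyl oxidases had its own pattern over the classes. Lox, the founding enzyme, was at 522 and 572 CPM in tendon-like cells, against 173 and 155 CPM in the other classes, a ratio of 3.35 (3.25 to 3.45). It was at 442 and 401 CPM in osteoblast-like cells, against 192 and 200 CPM, a ratio of 2.17 (2.09 to 2.26). Chondrocyte-like cells had 84.8 and 124 CPM, 2.45-fold lower (2.35 to 2.55) with 1.92-fold in set 2. Synovial lining-like cells had 9.70 and 26.2 CPM, 10.6-fold lower (8.39 to 13.7) with 22.5-fold in set 1. After thinning to 2000 UMIs, 50.3% of tendon-like cells had a Lox UMI, 47.0% of osteoblast-like cells, 22.2% of fibroblast-like cells, 7.93% of chondrocyte-like cells and 2.55% of synovial lining-like cells (0.698% to 6.39%), beside 0.704% of blood cells.

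Loxl1, known in mice for its role in elastic fibres, was higher in fibroblast-like cells alone. Fibroblast-like cells had 257 and 312 CPM, against 75.6 and 84.3 CPM in the other classes, a ratio of 3.58 (3.46 to 3.71). Chondrocyte-like cells had 14 and 24.9 CPM, against 225 and 260 CPM, 12.9-fold lower (11.7 to 14.1). In synovial lining-like cells it was 2.34-fold lower, with 3.71-fold in set 1. Of 9 other extracellular processing and crosslinking genes listed for comparison, fibroblast-like cells had 2 higher with 1 lower. The same list had 1 higher and 4 lower in chondrocyte-like cells, 1 higher and 3 lower in osteoblast-like cells, and 2 higher and 3 lower in synovial lining-like cells.

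Loxl2, the paralog that also acts on basement membrane collagen IV, differed 3.74-fold between its highest and lowest class, the least of the 5. It was called once, in chondrocyte-like cells at 97.6 and 106 CPM, against 256 and 248 CPM in the other classes, 2.48-fold lower (2.38 to 2.59). Its level in osteoblast-like cells was 467 CPM in set 1 and 252 CPM in set 2, and in synovial lining-like cells 116 and 249 CPM. Which class had the highest Loxl2 therefore changed with the set. Loxl2 was 64.0% of lysyl oxidase transcripts in synovial lining-like cells.

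Loxl3 and Loxl4 were both higher in chondrocyte-like cells. Loxl3, which is needed for palate and spine development in mice, was at 91.3 and 115 CPM in chondrocyte-like cells, against 25.5 and 29.5 CPM in the other classes, a ratio of 3.70 (3.49 to 3.92). It was lower in fibroblast-like (2.83-fold), osteoblast-like (2.12-fold) and synovial lining-like cells (4.13-fold), the osteoblast-like call being kept in 12 of 19 alternatives. Loxl4 (chr19:42593982-42612813, GRCm38) was at 54.6 and 69.5 CPM in chondrocyte-like cells, against 2.74 and 3.69 CPM, a ratio of 18.9 (16.5 to 21.8). All 4 other classes were called lower for Loxl4, at 1.79 to 4.72 CPM. Chondrocyte-like cells are in the pool of each of them, so the lower calls of Loxl3 and Loxl4 are not independent of the higher ones. In osteoblast-like cells the Loxl4 call rested on set 1, with 1.17 CPM and 16.4-fold there, against 9.88 CPM and 1.98-fold in set 2. In synovial lining-like cells the 10.5-fold difference for Loxl4 rested on 6 UMIs in the class and was 20.4-fold in set 1.

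After thinning, 5.84% of chondrocyte-like cells had a Loxl4 UMI (4.64% to 7.23%), beside 0.61% of fibroblast-like and 0.0681% of blood cells. Together Loxl3 and Loxl4 took 26.4% and 15.9% of lysyl oxidase transcripts in chondrocyte-like cells, and in the other 4 classes at most 4.42% and 0.564%. Lox was 52.6% of them in tendon-like and 43.2% in osteoblast-like cells, and Loxl1 was 40.2% in fibroblast-like cells. Of the 32 genes, 12 overlap another annotated gene of the matrix, Lox, Loxl2 and Loxl3 among them on the opposite strand.

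**Figure D4:**
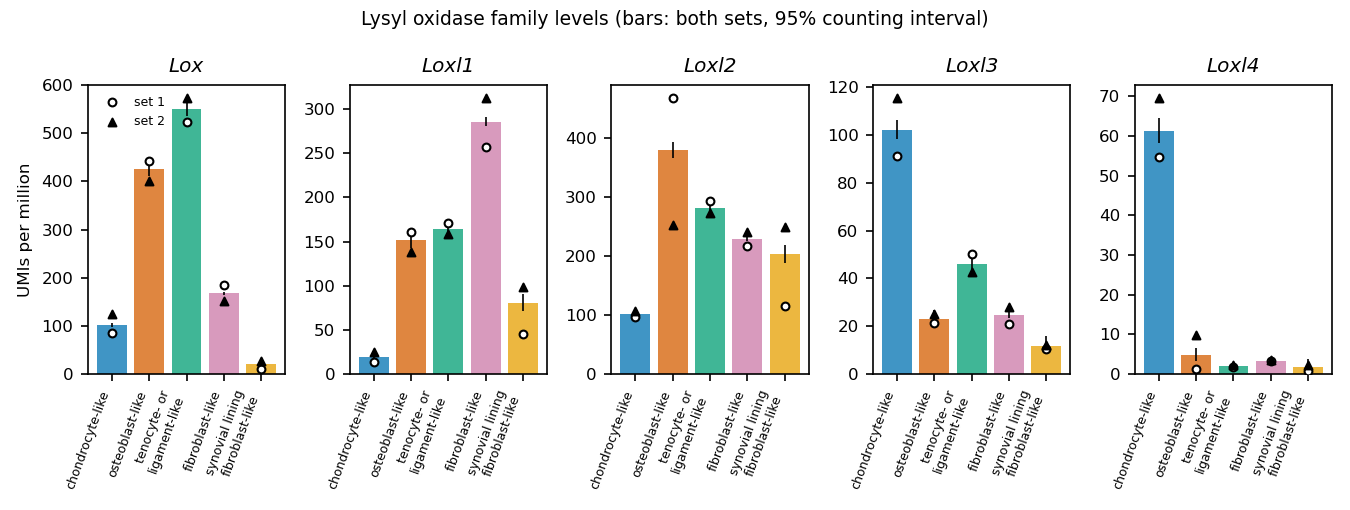
Level of each lysyl oxidase (CPM, y axis, a separate scale for each gene) in the 5 connective tissue classes; bars are both sets together with the 95% counting interval, open circles set 1 and triangles set 2. Lox is highest in tendon-like, Loxl1 in fibroblast-like and Loxl3 and Loxl4 in chondrocyte-like cells, and the 2 sets of osteoblast-like cells lie at 467 and 252 for Loxl2.

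Sparc encodes a calcium-binding protein that attaches to collagen and is abundant in bone. Chondrocyte-like cells had 17524 and 21963 CPM in the 2 sets, tendon-like cells 13151 and 18141 CPM, osteoblast-like cells 12129 and 17838 CPM and fibroblast-like cells 7845 and 9268 CPM, with no call. In synovial lining-like cells it was at 3307 and 3639 CPM, 3.66-fold lower than in the other classes (3.59 to 3.73). Outside connective tissue, Schwann-like cells had 5771 CPM and endothelial-like cells 4905 CPM.

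Collagen itself differed between the classes. The 11 fibrillar collagen chains summed to 61728 CPM in chondrocyte-like, 67805 in osteoblast-like, 64611 in tendon-like, 37707 in fibroblast-like and 7320 in synovial lining-like cells. Col2a1 made up most of it in chondrocyte-like cells, at 42299 CPM, and Col1a1 reached 30493 CPM in tendon-like and 29460 CPM in osteoblast-like cells. Per 1000 fibrillar collagen UMIs, hydroxylation genes counted 35.9 UMIs in chondrocyte-like, 28.1 in osteoblast-like, 27.4 in tendon-like and 31.7 in fibroblast-like cells. Folding genes counted 37.5, 48.1, 45.3 and 52.7 in the same order. Over these 4 classes both sums thus varied by less than 1.5-fold with both sets together. In set 2 alone folding passed that, from 34.8 in chondrocyte-like to 53.2 in fibroblast-like cells. Abundant genes carry such sums. Serpinh1 counted 17.8 and Ppib 15.2 of the 37.5 for folding in chondrocyte-like cells. Single hydroxylation genes could vary more, as P4ha3 from 0.21 to 1.19 and P3h2 from 0.55 to 2.37, while P4hb ranged from 5.85 to 8.10.

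The sums of the extracellular steps varied more over the same classes, but so did those of 2 intracellular steps. Export counted 1.3 in chondrocyte-like and 3.3 in fibroblast-like cells, and glycosylation 1.6 in osteoblast-like and 3.0 in fibroblast-like cells. Cleavage genes counted 8.2 UMIs per 1000 fibrillar collagen UMIs in chondrocyte-like, 12.2 in osteoblast-like, 19.3 in tendon-like and 39.0 in fibroblast-like cells. Crosslinking genes counted 6.3, 14.5, 16.2 and 18.9, with the chondrocyte-like value furthest from the rest. Pcolce alone made up 22.6 of the 39.0 for cleavage in fibroblast-like cells. Synovial lining-like cells, with little collagen transcript, were above the other connective tissue classes on this scale. They were at 185 for hydroxylation, 200.3 for folding, 63.3 for cleavage and 43.5 for crosslinking. There Plod2 alone counted 54.0 (51.1 to 56.9), against 3.31 in tendon-like and 5.84 in chondrocyte-like cells. Blood cells stood at 111 for hydroxylation, 175 for folding, 29.0 for cleavage and 18.5 for crosslinking. Their hydroxylation genes summed to 156 CPM, against 1355 CPM in synovial lining-like cells. A high value on this scale can therefore go with few transcripts of the step. Synovial lining-like cells were the smallest class, and held 1457 CPM of Col2a1, 810 CPM of summed chondrocyte markers and 1083 CPM of summed pericyte markers. The part of these in the result was not tested.

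**Figure D5:**
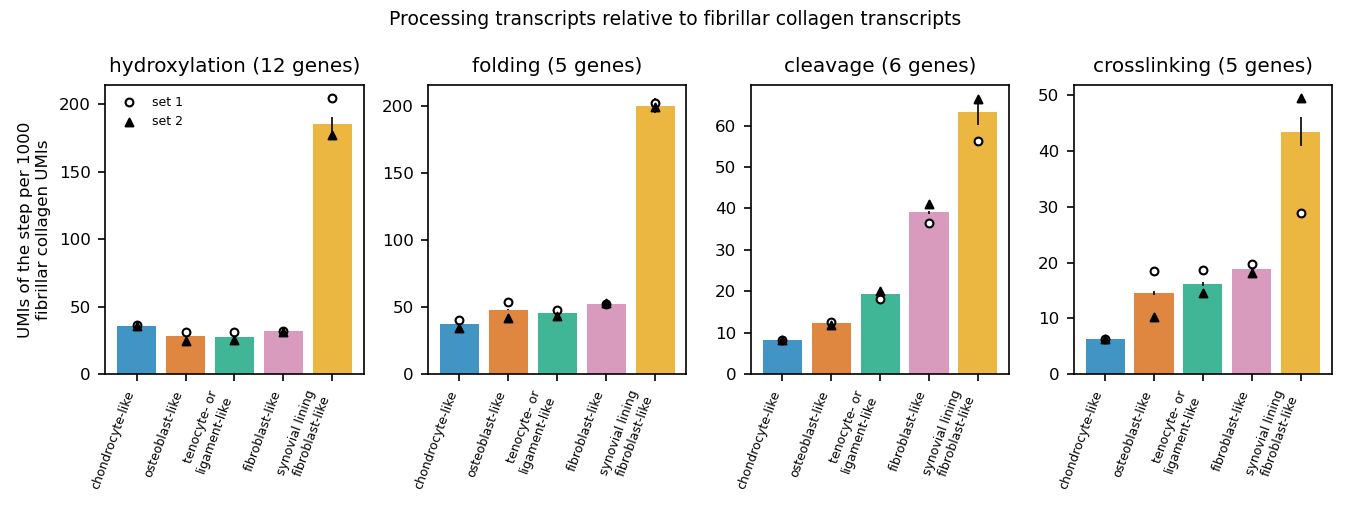
UMIs of the genes of a step per 1000 fibrillar collagen UMIs (y axis, a separate scale for each step) in the 5 connective tissue classes; bars are both sets together with the 95% counting interval, open circles set 1 and triangles set 2. Synovial lining-like cells are highest in every panel, and cleavage is at 8.2 in chondrocyte-like and 39.0 in fibroblast-like cells.

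Across 10 connective clusters (the 7 of the named classes and 3 unnamed clusters that hold collagen I and III), Lox followed collagen I chains most closely. Pearson's r was 0.97 and Spearman's rho 0.90 between log2 levels, with 1 CPM added to the level of the gene. Creb3l1 had r of 0.90 and rho of 0.65, P4ha3 0.87 and 0.88, and Adamts3 0.84 and 0.82. Against all fibrillar chains, Sparc had r of 0.94 and rho of 0.93 and Serpinh1 0.85 and 0.82. Plod2 had r of -0.33 with rho of 0.24, so its rank relation and its linear relation on the log2 scale differed in sign. These values describe clusters of 1 matrix that share libraries, free RNA and a total of which collagen is a large part.

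Within the fibroblast-like class, 9 of the 32 genes differed at least 2-fold between the highest and the lowest of its 3 clusters, against 51.4% of 12110 genes. The cluster led by Abca8a, Ebf2 and Cd248 had more Colgalt2, at 29.0 CPM against 1.21 CPM in the cluster led by Cxcl5 and Saa3, and more P3h2, at 40.9 CPM against 2.84 CPM in the cluster led by Brinp3 and Pi16. It was also the highest for Loxl1, at 389 CPM against 168 CPM in the cluster led by Cxcl5, and for Fkbp10, at 143 CPM against 52.6 CPM. The cluster led by Brinp3 and Pi16 had the most Pcolce2, at 340 CPM against 129 CPM in the cluster led by Abca8a. Plod1, Loxl3 and Loxl4 were highest in the cluster led by Abca8a and Tmem38b in that led by Cxcl5. The fibroblast-like values given above are thus averages over unlike clusters for these 9 genes.

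Among all named classes, 26 of the 32 genes had their highest level in a connective tissue class. The other 6 were P4ha2 and Creb3l1 in mast cell-like cells (175 and 333 CPM), P3h2 in Schwann-like cells (220 CPM), Plod1 in endothelial-like cells (87.2 CPM), Colgalt1 in B cell-like cells (122 CPM) and Tmem38b in neutrophil-like cells (117 CPM). For P3h2, Plod1 and Colgalt1 this class was the highest in 1 set only. A Tmem38b UMI was found in 10.4% of thinned blood cells (9.56% to 11.4%), against 1.42% of chondrocyte-like cells and 5.10% of synovial lining-like cells. Mast cell-like cells numbered 124 and held 3145 CPM of Col2a1, a gene of cartilage cells, and the part of such transcripts in the Creb3l1 and P4ha2 levels was not tested.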

How the data were processed

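UMI counts per gene and barcode were made by the authors and deposited as 1 matrix, not normalised. Per the labels' protocols, Cell Ranger 7.0.0 aligned the reads and merged the experiments, with mm10 named in the submitters' processing notes. The labels do not say how intronic reads were treated. Because no label maps barcodes to samples, the matrix counted as 1 sample. The genes, gene lists and comparisons were chosen with earlier results of these data known. The matrix gave medians of 7369 and 7212 UMIs per barcode in its 2 sets.

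The filter asked for 500 genes, 1000 UMIs and no more than 10% mitochondrial UMIs per cell. Doublets were called with Scrublet in each set and removed, 72 of 7160 in set 1, 6 of 8014 in set 2, rates so low that doublets are likely to remain. In scanpy 1.11.5, cells were scaled to 10000 counts, and 30 principal components of 2000 variable genes were joined by 15 neighbours per cell. The Leiden method (leidenalg 0.10.2, resolution 1) gave 31 clusters, with 263 genes left out. A cluster was named where the median marker log2 fold was at least 1 and 3 markers found in 10% of its cells reached 1, with 10 CPM added.

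CPM, ratios and exact Poisson, conditional binomial and Clopper-Pearson 95% intervals were computed with scipy 1.17.1. Alternatives are given in the closing section. Each of the 32 genes is given or counted, those called with their values, and other genes are named from fixed lists. Gene coordinates are those of GENCODE M21. A share of 0 would allow 3 counts.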

Additional observations from a re-analysis of the deposited data

How the results depend on the processing

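Over 21 alternatives, 18 planned and 3 chosen after seeing the data, 24 of the 57 calls were kept wherever they could be made and 20 in all but 1 or 2. Some outcomes were fixed in advance. A ratio of 1.5 could lose no call, nor could minima of 30 or 300 UMIs, since every gene had at least 1160 in these classes. A ratio of 3 dropped 26 calls below 3-fold by definition. The tallies of kept calls, here and above, include these settings and are a description only. No call changed direction except that of P4ha3 in synovial lining-like cells, whose log2 ratio was 0.083 with 15 principal components. The cause was not tested for any change below, beyond what an alternative's construction fixes. Leaving collagen UMIs out of the totals kept all 57 calls.

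Counts of called genes moved by over 1.5 times as follows. With at least 1000 genes and 2000 UMIs per cell, 3 were higher in chondrocyte-like and 5 lower in fibroblast-like cells. With at most 5% mitochondrial UMIs, 3 were higher in chondrocyte-like and 2 lower in tendon-like cells. Resolution 2 gave 3 higher in chondrocyte-like cells, and keeping called doublets gave 2 lower in tendon-like cells. With 15 components, synovial lining-like cells had 1 higher and 4 lower. A ratio of 1.5 gave 10 higher in chondrocyte-like, 7 in osteoblast-like and 8 in tendon-like cells, and 14 lower in fibroblast-like cells. A ratio of 3 gave 3 higher in chondrocyte-like, 1 in osteoblast-like, 1 in fibroblast-like and 1 in synovial lining-like cells, with 2 lower in tendon-like, 3 in fibroblast-like and 9 in synovial lining-like cells. Set 1 alone, and both sets weighted equally, each gave 1 higher in synovial lining-like cells, since Adamts14 lost its call. With 3 unnamed clusters in the pool, an alternative added later, fibroblast-like cells had 1 higher and 5 lower.

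The osteoblast-like class was not found at resolution 0.5 or with 15 components, so no value could be given there. The call kept least often was Pcolce in synovial lining-like cells, in 10 of 20 alternatives. It was followed by P4ha1 in chondrocyte-like and Fkbp10 in fibroblast-like cells (12 of 21 each). P4ha2 in tendon-like cells (13 of 21) and Loxl3 in osteoblast-like cells (12 of 19) came next. No paired analysis was possible because the columns of the matrix carry no genotype or replicate number. The main limits are the single matrix, the unknown nature of the barcode sets, rebuilt cell names, the small synovial lining-like class and free RNA from blood and other cells.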
